A study of Sus scrofa with 4 samples.

Results

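The growth hormone and insulin-like growth factor (GH and IGF) axis was examined in the thymus of IL2RG KO and WT pigs through 10 of its genes, namely the receptors GHR and IGF1R, the ligands IGF1 and IGF2, the adaptor IRS1 and the binding proteins IGFBP2, IGFBP3, IGFBP4, IGFBP5 and IGFBP6. Every probe of the array whose RefSeq transcript belongs to one of these pig genes was taken. This gave 19 probes of 43603, and 10 genes of the 3020 that could be named from a RefSeq transcript. GHR, IGF1 and IGF2 had 2, 1 and 5 probes, IGF1R and IRS1 had 2 each, IGFBP2 and IGFBP6 had 2 each, and IGFBP3, IGFBP4 and IGFBP5 had 1 each.

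Growth hormone, made in the pituitary, binds GHR at the cell surface and acts through the kinase JAK2 and the transcription factors STAT5A and STAT5B, and IGF1 is a main target of this signal. IGF1 and IGF2 act on the receptor tyrosine kinase IGF1R, which passes the signal to IRS1 and on to the PI3K and AKT pathway. In tissue fluid and blood most IGF is held by binding proteins, which can store it, carry it or keep it from the receptor, and proteases release it again. In the thymus, growth hormone and IGF1 are known for their effect on thymus size, and IGF2 is known as a product of the thymic epithelium.

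Thymus RNA of Minnesota miniature swine was hybridised to 4 one-colour Agilent arrays, 2 per genotype. The KO samples carry the genotype label IL2RG+/- and came, by the methods, from pigs with 1 edited IL2RG allele, produced by nuclear transfer from cell colonies edited with TALENs. Most KO pigs had no thymus, so the arrays describe the small thymus of those that did. The WT samples are labelled wildtype. The labels give neither age nor sex of the sampled pigs, and whether the WT pigs were cloned is not given in the sources used here. Any difference in age, sex or cloning between the groups therefore cannot be told apart from genotype. Slide 1 carried KO replicate 1 beside WT replicate 2, and slide 2 carried KO replicate 2 beside WT replicate 1. The labels number the replicates without saying that each is a separate animal, so p-values measure the spread between these 4 samples alone, and 2 arrays against 2 cannot give an exact permutation p below 0.333 (two-sided).

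Between 67.9% and 74.5% of probes were well above background on an array, and no spot was saturated. IL2RG, the targeted gene, was lower in KO at both of its probes, with log2 fold changes of −3.41 and −4.38 (limma adjusted p = 0.00256 and 0.00208). Thymus marker genes were compared between the genotypes, which does not test the tissue label. All 14 thymocyte genes tested were lower in KO (median log2 fold change −2.80), RAG2 having passed the filter through WT alone. Of 6 thymic epithelium genes, 4 were called higher in KO (median 1.60). Whole tissue was measured, so more or fewer cells of a type and more or less RNA per cell cannot be told apart at any gene below. Signals are given as log2 of the processed spot brightness minus the 75th percentile of the array, so that 0 is the brightness of a probe at that percentile. A probe was called when its Benjamini-Hochberg adjusted p from limma, over 31959 probes tested, was under 0.05 and its fold change at least 2. Of the named genes tested, each by its brightest probe, 25.1% were called higher in KO and 12.6% lower.

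Of the 19 probes, 14 were called higher in KO and 0 lower, where 21% of all tested probes were called higher, 13% lower and 34% either way. None of the 19 fell at an unadjusted p under 0.05 with limma or with the methods' t-test. All 19 passed the filter on dim probes, and 18 were well above background on all 4 arrays. The dimmer IRS1 probe passed through the KO arrays alone, so its direction is tied to the filter. It was not called, but it enters the counts of direction and the median given here. The median log2 fold change of the 19 was 1.85, beside −0.06 for all tested probes. When each gene was represented by its brightest probe, 9 of 10 genes were called higher in KO, beside 25.1% of the named genes tested, and IGFBP2 was the exception. Both KO arrays lay above both WT arrays at 17 probes (37.7% of all tested probes did so), and below them at the 2 IGFBP2 probes (41% of all). The difference had the same sign on both slides at all 19 probes. GHR, IGF1, IGF2 and IRS1 stand on gene lists that the study made from these samples, so their direction is not independent evidence.

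**Figure D1:**
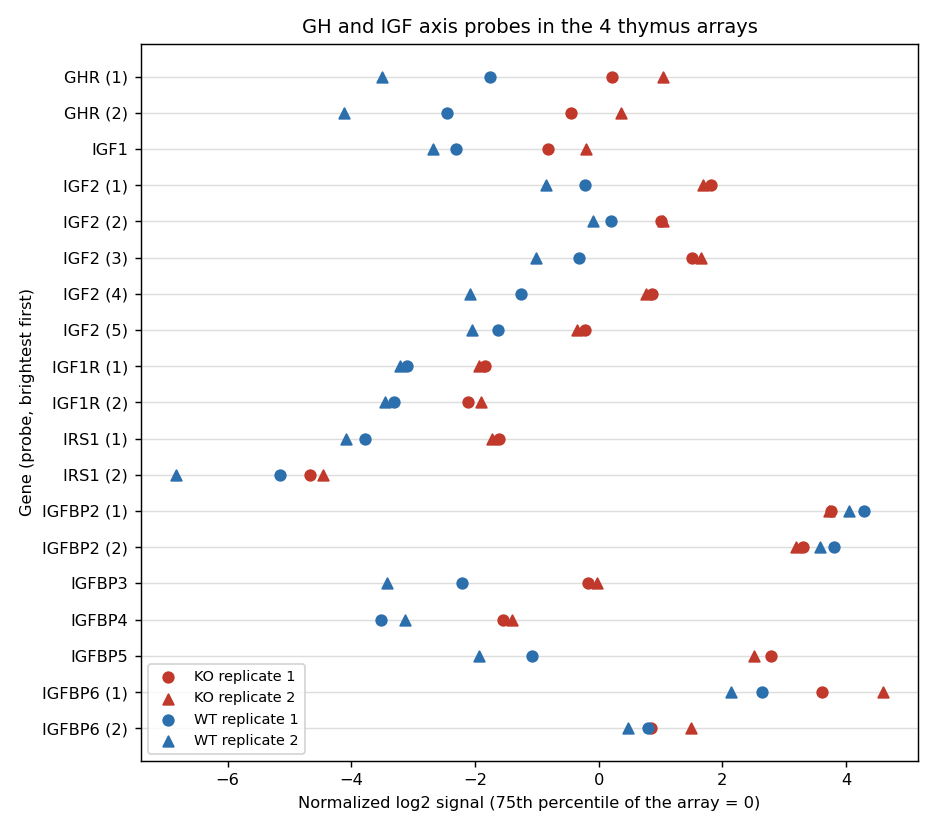
Normalized log2 signal (horizontal axis, with 0 at the 75th percentile of the array) of the 19 GH and IGF axis probes in KO (red) and WT (blue) thymus, replicate 1 as circles and replicate 2 as triangles. Red lies to the right of blue at 17 probes and to the left at the 2 IGFBP2 probes. Distances between genes have no meaning, since probes differ in brightness.

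GHR, the receptor through which growth hormone reaches the cell, was higher in KO at both probes. At the brighter probe (A_72_P441429) the log2 signal was 0.21 and 1.04 in KO replicates 1 and 2, and −1.75 and −3.50 in WT replicates 1 and 2. The groups did not overlap, and the WT arrays lay 1.75 apart from each other. The KO mean was 0.62 ± 0.58 and the WT mean −2.63 ± 1.24 (SD, n = 2 each). This gave a log2 fold change of 3.25 (SE 0.67, 95% interval 1.46 to 5.04, limma adjusted p = 0.0196), a 9.52-fold higher signal in KO, and 2.81% of tested probes had a log2 fold change at least as high. The other probe (A_72_P303059) gave nearly the same difference, 3.24 (SE 0.64, adjusted p = 0.0177). Within the slides the brighter probe differed by 3.71 and 2.79. The fold depended on the WT array used, with 17.5-fold at the brighter probe without WT replicate 1 and 5.20-fold without WT replicate 2, and with normexp, another background correction, it was 6.11-fold at the brighter and 4.59-fold at the other probe. Without KO replicate 2 neither GHR probe was called, each with a log2 fold change of 2.84 (adjusted p = 0.0766 and 0.0705).

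Within each genotype GHR had the order of arrays that most fat cell, macrophage and fibroblast markers also had. It was higher in KO replicate 2 than in KO replicate 1, by 0.82, and higher in WT replicate 1 than in WT replicate 2. Both orders put slide 2 above slide 1, so slide and tissue content cannot be told apart in them. Of 12 fat cell genes, 12 had the first order and 11 the second, with median differences of 1.53 and 1.00. Of 9 macrophage genes, 9 and 7 had these orders, of 5 fibroblast genes 5 and 4, and of 8 endothelium genes 8 and 5. Of all named genes tested, 59.4% had the first order and 51.4% the second. The summed scaled signal of the 12 fat cell genes, in units of the array's 75th percentile, was 87.0 and 213 in KO replicates 1 and 2, and 58.2 and 39.8 in WT replicates 1 and 2. Between the genotypes, 6 of the 12 were called higher in KO and 0 lower, beside 25.1% and 12.6% of the named genes tested. Their median log2 fold change was 2.66. None of the 12 was below background on every array, and the defining genes ADIPOQ and PLIN1 had log2 fold changes of 2.98 and 3.99 (limma adjusted p = 0.027 and 0.0364). PLIN1 was not well above background in WT replicate 2 and passed the filter through KO alone. Its direction is therefore tied to the filter, and its fold uses that WT signal. The part of any of these cell types in the GHR difference was not tested.

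IGF1, the ligand whose gene growth hormone switches on in liver and other tissues, was higher in KO at its single probe (A_72_P232282). The log2 signal was −0.82 and −0.20 in KO replicates 1 and 2, and −2.31 and −2.68 in WT replicates 1 and 2. Each KO array was thus above each WT array, by more than either pair of replicates differed. The log2 fold change was 1.99 (SE 0.29, 95% interval 1.22 to 2.75, limma adjusted p = 0.00813), which is 3.96-fold, and the slides gave 1.86 and 2.11. The call held in each fit that left out 1 array, with log2 fold changes between 1.67 and 2.30. Macrophages are a known tissue source of IGF1. All 9 macrophage genes tested were called higher in KO (median log2 fold change 2.23), beside 25.1% of the named genes tested. Their summed scaled signal was 263 and 340 in KO replicates 1 and 2, and 70.1 and 55.6 in WT replicates 1 and 2, and their part in the IGF1 difference was not tested.

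IGF2, the ligand that is imprinted in mammals and strongly expressed in fetal tissues, had 5 probes, of which 4 were called higher in KO. The brightest (A_72_P599193) read 1.82 and 1.68 in KO replicates 1 and 2, and −0.22 and −0.85 in WT replicates 1 and 2. The KO arrays were close to each other and well apart from both WT arrays. The log2 fold change was 2.28 (SE 0.26, 95% interval 1.58 to 2.99, limma adjusted p = 0.00496), or 4.87-fold, with 2.67 on slide 1 and 1.90 on slide 2. The probes A_72_P544532, A_72_P303139 and A_72_P537644 gave 2.48, 2.25 and 1.55, also called, although the last of them lost its call without KO replicate 1 (1.49, adjusted p = 0.0531). At A_72_P537638 the difference was 0.97 (SE 0.18, adjusted p = 0.0151), just under 2-fold and therefore not called, with KO at 1.01 and 1.04 and WT at 0.21 and −0.09. The 5 probes had the same sign and spanned 1.51 on the log2 scale, and which IGF2 transcripts each probe reads was not analysed here. The brightest probe was called in each fit that left out 1 array (1.97 to 2.60).

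The summed scaled signal of the thymic epithelium markers was 279 and 258 in KO replicates 1 and 2, and 105 and 74.1 in WT replicates 1 and 2, so that KO replicate 1 stood highest. The IGF2 probes did not share 1 order of the KO arrays. KO replicate 1 was the higher at the brightest probe (1.82 and 1.68 in replicates 1 and 2), but not at A_72_P303139 (1.51 and 1.65) or A_72_P537638 (1.01 and 1.04). KRT8, a keratin of simple epithelium, had a log2 fold change of 2.37 (adjusted p = 0.00778), while that of EPCAM, an adhesion molecule of epithelial cells, was 0.37 and was not called (adjusted p = 0.127). None of the 6 epithelial genes tested was below background on every array. Their part in the IGF2 difference was not tested.

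IGF1R, the tyrosine kinase that both ligands activate, was higher in KO at both probes by a smaller amount. The brighter probe (A_72_P440946) read −1.84 and −1.94 in KO replicates 1 and 2, and −3.10 and −3.22 in WT replicates 1 and 2. Replicates of a genotype lay within 0.12 of each other, and every KO array was above every WT array. The log2 fold change was 1.27 (SE 0.16, 95% interval 0.85 to 1.69, limma adjusted p = 0.00581), or 2.42-fold, and that of the other probe (A_72_P146851) was 1.38 (SE 0.17, adjusted p = 0.00586). Both probes were dim, and after normexp the differences were 0.78 and 0.73, under 2-fold and not called. Neither probe was called without KO replicate 2 (1.32 and 1.28, adjusted p = 0.0535 and 0.0583), nor was the brighter one without KO replicate 1 (1.22, adjusted p = 0.0601).

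IRS1, the docking protein that links IGF1R and the insulin receptor to PI3K, was called higher in KO at 1 of 2 probes. At the brighter one (A_72_P537138) the log2 signal was −1.62 and −1.73 in KO replicates 1 and 2, and −3.78 and −4.08 in WT replicates 1 and 2. The genotypes were separated by far more than the replicates. The log2 fold change was 2.26 (SE 0.18, 95% interval 1.77 to 2.75, limma adjusted p = 0.00268), or 4.79-fold, and it was called in each fit that left out 1 array (2.11 to 2.41). With normexp it was still called, at 1.30 on the log2 scale or 2.47-fold (adjusted p = 0.00129). At the dimmer probe (A_72_P443378), not well above background in WT replicate 2, the values were −4.66 and −4.46 in KO and −5.15 and −6.84 in WT. Its difference of 1.43 was not called (SE 0.59, 95% interval −0.15 to 3.02, adjusted p = 0.111). Leaving out WT replicate 1 raised the difference at this dimmer probe to 2.27. That value sets KO against WT replicate 2 alone, where the probe was not well above background, so no call is drawn from it. After normexp the difference at the dimmer probe was 0.12 and was not called (limma adjusted p = 0.63).

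**Figure D2:**
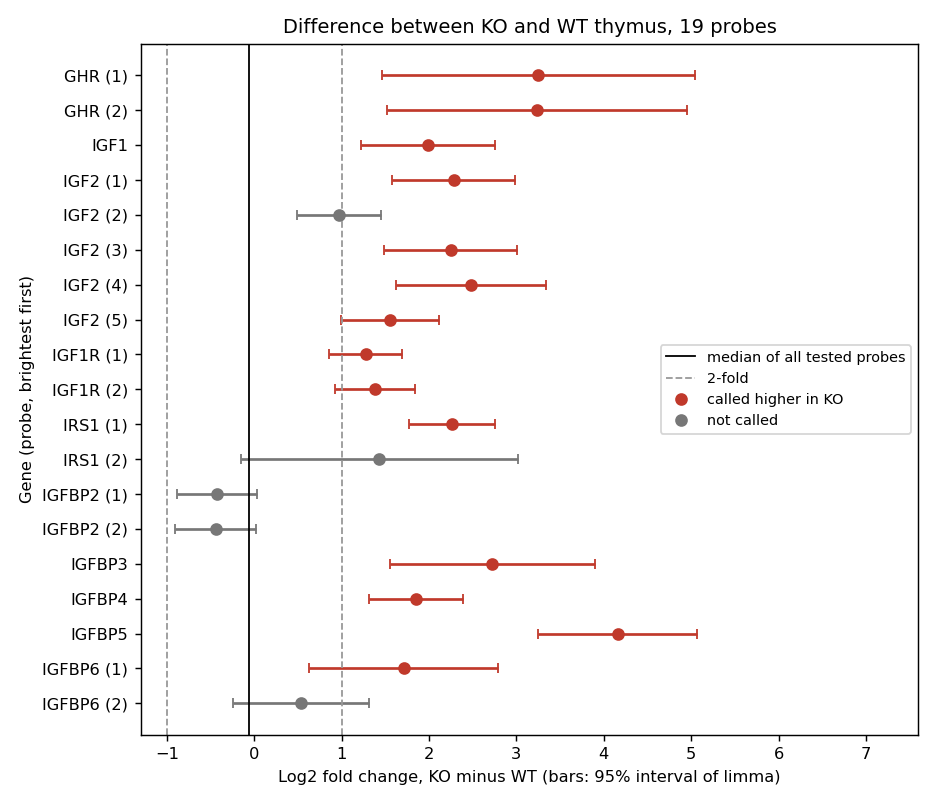
Log2 fold change of KO against WT (horizontal axis) at each of the 19 probes, with the 95% interval of limma as a bar, red where the probe was called higher in KO and grey where it was not called. IGFBP5 stands farthest to the right at 4.16, and the 2 IGFBP2 probes lie left of the median of all tested probes.

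IGFBP5, a binding protein that attaches to extracellular matrix, had the highest log2 fold change of the 19 probes. Its probe (A_72_P146706) read 2.78 and 2.52 in KO replicates 1 and 2, and −1.07 and −1.94 in WT replicates 1 and 2. In processed signal, before normalization, KO stood at 5250 and 3986 and WT at 295 and 181. The difference on the log2 scale was 4.16 (SE 0.34, 95% interval 3.25 to 5.07, limma adjusted p = 0.0027), which is 17.8-fold (95% interval 9.50 to 33.5), and 0.67% of tested probes reached it. It was 4.72 on slide 1 and 3.59 on slide 2, and lay between 3.72 and 4.59 with 1 array left out.

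IGFBP2, a binding protein with a preference for IGF2, lies next to IGFBP5 in the order of genes of the Sscrofa11.1 assembly and was the member that was not higher in KO. Its brighter probe (A_72_P634395) read 3.77 and 3.72 in KO replicates 1 and 2, and 4.29 and 4.04 in WT replicates 1 and 2. KO was thus the lower genotype on every array, by a small distance. The difference was −0.43 (SE 0.17, 95% interval −0.89 to 0.03, limma adjusted p = 0.105), and that of the other probe (A_72_P178161) was −0.44 (SE 0.17, 95% interval −0.90 to 0.02, adjusted p = 0.0973). Neither probe was called. The intervals with the 75th percentile scaling exclude a 2-fold change, but with median scaling the differences were −0.69 and −0.70 (adjusted p = 0.027 and 0.0262) and their intervals reached −1.14 and −1.16. With an intensity trend the adjusted p was 0.047 and 0.0452, and the fold stayed under 2. The intervals of IGFBP2 and of IGFBP5 do not overlap.

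IGFBP3, the main IGF carrier in blood together with IGFALS, was higher in KO. Its probe (A_72_P165666) read −0.17 and −0.03 in KO replicates 1 and 2, and −2.22 and −3.43 in WT replicates 1 and 2. The KO arrays were alike, and the WT arrays differed by 1.22. The log2 fold change was 2.72 (SE 0.44, 95% interval 1.55 to 3.90, limma adjusted p = 0.0106), or 6.61-fold, with 3.27 and 2.18 on slides 1 and 2. It was called in each fit that left out 1 array, with 10.1-fold without WT replicate 1 and 4.34-fold without WT replicate 2, and with normexp at 4.29-fold.

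IGFBP4, a binding protein that limits IGF action until it is cleaved, read −1.55 and −1.40 in KO replicates 1 and 2 (A_72_P441554), and −3.52 and −3.14 in WT replicates 1 and 2. It was the single member with WT replicate 2 above WT replicate 1. The log2 fold change was 1.85 (SE 0.20, 95% interval 1.31 to 2.39, limma adjusted p = 0.00448), or 3.61-fold, and the call held with each array left out (1.66 to 2.04) and with normexp, at 2.33-fold. TOP2A, a topoisomerase of dividing cells and its neighbour in the gene order, went the other way, with a log2 fold change of −2.81 (adjusted p = 0.00205).

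IGFBP6, which binds IGF2 with preference over IGF1, was called higher in KO at 1 of 2 probes. The brighter one (A_72_P088481) read 3.61 and 4.60 in KO replicates 1 and 2, and 2.64 and 2.15 in WT replicates 1 and 2. KO lay above WT, with the KO replicates 0.99 apart. Its log2 fold change was 1.71 (SE 0.40, 95% interval 0.63 to 2.79, limma adjusted p = 0.0279), or 3.27-fold. The call was lost without KO replicate 2 (1.21, adjusted p = 0.0912) and without WT replicate 2 (1.46, adjusted p = 0.0686). At the other probe (A_72_P442649) the values were 0.84 and 1.50 in KO and 0.80 and 0.47 in WT, and the difference of 0.54 was not called (SE 0.29, 95% interval −0.24 to 1.31, adjusted p = 0.194).

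The members differed in how the replicates of a genotype were ordered. WT replicate 1 was above WT replicate 2 at 18 of the 19 probes (49.7% of all tested probes), with a median difference of 0.42. KO replicate 2 was above KO replicate 1 at 11 of 19 (50.2% of all), with a median of 0.13. Both of these orders put slide 2 above slide 1. GHR, IGF1 and IGFBP6 were higher in KO replicate 2 by 0.62 to 0.99, and IGFBP3 and IGFBP4 by 0.13 and 0.14. The brightest probes of IGF2, IGF1R, IRS1, IGFBP2 and IGFBP5 were slightly lower there. Of 5 fibroblast and connective tissue genes, 4 were called higher in KO (25.1% of the named genes tested) and all 5 were higher in KO replicate 2 (59.4%). Their summed scaled signal was 132 and 194 in KO replicates 1 and 2, and 63.8 and 28.2 in WT replicates 1 and 2. Of 8 endothelium genes, 5 were called higher in KO, with summed signals of 24.4 and 26.8 on the KO arrays, against 13.3 and 11.7 on those of WT. No gene of either list was below background on every array, and the part of these cell types in the differences was not tested.

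**Figure D3:**
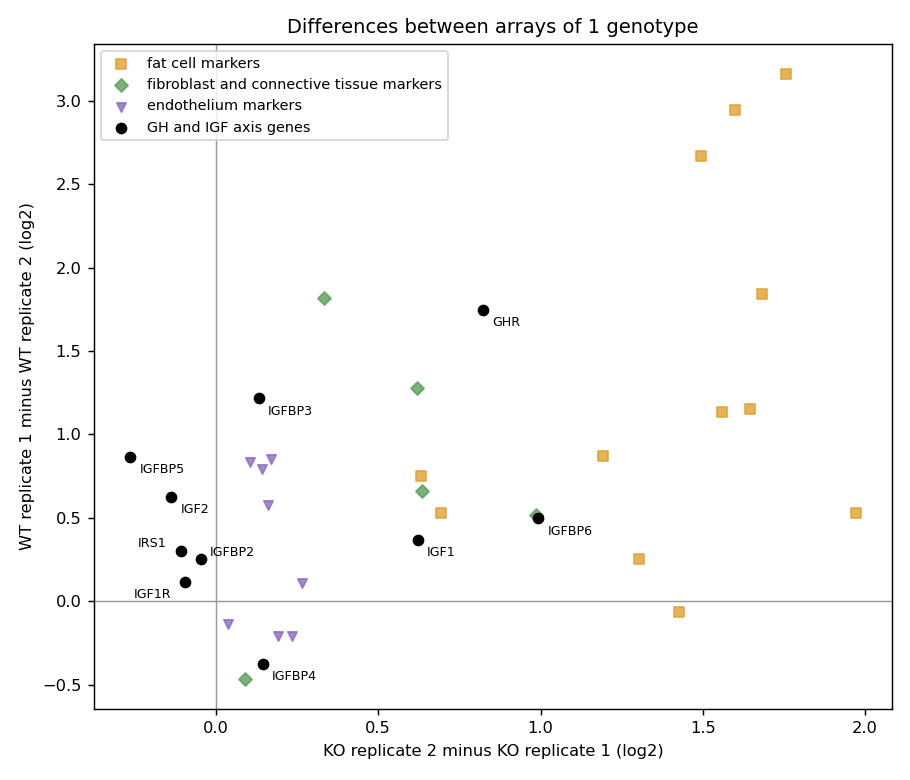
Difference between the KO arrays (replicate 2 minus replicate 1, horizontal axis) and between the WT arrays (replicate 1 minus replicate 2, vertical axis), in log2, of the brightest probe of each GH and IGF axis gene (black) and of the fat cell, fibroblast and endothelium marker genes. GHR, IGF1 and IGFBP6 lie to the right of 0, as all fat cell, fibroblast and endothelium markers drawn do. IGFBP3 and IGFBP4 lie slightly right of 0, at 0.13 and 0.14, while IGF2, IGF1R, IRS1, IGFBP2 and IGFBP5 lie left of it. Each axis is also the difference of slide 2 minus slide 1.

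For 9 of the members, the named genes with the closest pattern were found by the Euclidean distance between log2 values over the 4 arrays, each gene centred on its own mean, among 2690 other named genes tested. For GHR these were RBP5 and SLC7A2 at 0.389 and 0.433, the farthest of the nearest genes among these members. IGF1 had ULBP1 and CD14 at 0.146 and 0.152, of which CD14 is a macrophage surface receptor on the marker list. IGF2 was closest to MARVELD3 and TPD52 (0.0526 and 0.0601). IGF1R was closest to HPCAL1 and VLDLR (0.0549 and 0.0562). Among the binding proteins, IGFBP3 was closest to LYZ (0.0591), IGFBP6 to FASN (0.0860), IGFBP5 to HTR1D (0.138), IGFBP4 to LHCGR (0.154) and IGFBP2 to SEC23B (0.0697). The second genes were SELP, FOXA1, PDLIM3, LOC733635 and KLK1. The difference between genotypes enters this distance, which rests on 4 arrays and is given as a description.

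The rest of the pathway was read from 4 lists with 92 genes, of which 42 had a named probe and 31 were tested. Of these 31, 7 were called higher in KO and 4 lower, and the median log2 fold change was −0.07, beside 25.1% and 12.6% of the named genes and a median of −0.00. The calls fell in 2 of the 4 lists. Carriers and proteases held all 7 that were higher and 1 that was lower, of 11 tested. Of these 11, IGFALS, STC1 and STC2 passed the filter on dim probes through the KO arrays alone, so their direction is tied to the filter. IGFALS was well above background in WT replicate 1 too, whereas STC1 and STC2 were so on no WT array. Among the 8 measured above background on every one of the 4 arrays, 4 were called higher and 1 lower, with a median of 1.78. Intracellular signalling held the other 3 that were called lower, of 14 tested.

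Among the upstream signals, 4 of the 12 named genes were tested and 0 were called (1 had an unadjusted p under 0.05 with limma, and 1 with the methods' t-test). Over all named genes tested, 25.1% were called higher in KO and 12.6% lower. GH1, which encodes growth hormone, was not well above background on any array, nor were SSTR2, a somatostatin receptor, and POU1F1, the pituitary transcription factor that drives GH1. IGF2R, the receptor that takes IGF2 into the cell for breakdown, read −2.94 and −2.76 in KO and −2.91 and −2.79 in WT. The genotypes overlapped and its difference was 0.00 (SE 0.17, 95% interval −0.45 to 0.45, adjusted p = 1). SST, the peptide that inhibits growth hormone release, had a difference of −0.61 (adjusted p = 0.0347), under 2-fold. INSR, IGFBP1, PAPPA, PAPPA2, CISH, IRS2 and FOXO1 have no named probe and were not analysed here.

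Of the carriers, IGFBP7, a relative of the IGF binding proteins with low affinity for IGF, was higher in KO at 3 of 3 probes. Its brightest probe read 5.51 and 5.60 in KO replicates 1 and 2, and 3.50 and 3.58 in WT replicates 1 and 2. The replicates almost coincided, and the log2 fold change was 2.02 (SE 0.15, limma adjusted p = 0.00247). IGFALS, the partner of IGFBP3 in the circulating complex, had 1.82 (SE 0.38, adjusted p = 0.0207), but it was not well above background in WT replicate 2 and lost its call without either KO array (adjusted p = 0.0751 without replicate 1 and 0.089 without replicate 2). KAZALD1, a secreted protein with an IGF binding domain, had 2.73 (SE 0.39, adjusted p = 0.00793), with arrays at 3.29 and 3.51 in KO and at 1.19 and 0.15 in WT.

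The stanniocalcins STC1 and STC2 inhibit the pappalysin proteases that cleave IGFBP4. Neither was well above background on a WT array, so their changes are lower bounds, each set by the dimmest signal well above background on an array. STC1 was at least 2.07-fold higher in KO (adjusted p = 0.00205) and STC2 at least 1.44-fold (adjusted p = 0.00297), a bound under the 2-fold limit. The adjusted p-values belong to fitted values that use WT signals below background. With both at their bound, the median log2 fold change of the 11 carriers and proteases was 1.74, beside 1.83 as fitted.

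Among the proteases, ADAMTS1, a secreted metalloproteinase with thrombospondin motifs, read 2.16 and 2.35 in KO and −0.45 and −1.60 in WT. Its log2 fold change was 3.28 (SE 0.42, limma adjusted p = 0.0062), and 2 of 2 probes were called. PLAU, the urokinase that activates plasminogen, had 1.83 (SE 0.21, adjusted p = 0.00493). MMP9, a gelatinase of myeloid and other cells, went the other way with −1.73 (SE 0.34, adjusted p = 0.0171), at both of its probes, and its call too was lost without either KO array (adjusted p = 0.0828 and 0.0555). MMP2, the other gelatinase, was at 1.74 but was not called (SE 0.59, adjusted p = 0.0704). TIMP1, a metalloproteinase inhibitor, was at 0.77 (adjusted p = 0.0267), under 2-fold. IGFBP7, KAZALD1, STC2, ADAMTS1 and MMP9 also stand on the study's own lists from these samples.

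Inside the cell, 0 of the 14 genes tested were called higher in KO (1 at an unadjusted p under 0.05 with limma, and 0 with the methods' t-test). Of all named genes tested, 25.1% were called higher in KO and 12.6% lower. GRB10, an adaptor that dampens IGF1R and insulin receptor signalling, was lower at 3 of 3 probes. It read 2.52 and 2.48 in KO replicates 1 and 2, and 4.02 and 3.78 in WT replicates 1 and 2, a log2 fold change of −1.40 (SE 0.17, limma adjusted p = 0.00566). STAT5B, a transcription factor that growth hormone and interleukin 2 both activate, was called lower at 1 of 2 probes, with −1.06 (SE 0.20, limma adjusted p = 0.0164).

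GRB10 and STAT5B lost their call without KO replicate 2, and STAT5B also without KO replicate 1 and without WT replicate 2. The thymocyte genes were lower in KO as well, and their summed scaled signal was 44.0 and 42.6 in KO replicates 1 and 2, and 298 and 406 in WT replicates 1 and 2. Within WT, STAT5B shared their order, with replicate 2 higher, and GRB10 had the opposite order. The part of thymocytes in these differences was not tested. JAK2, the kinase bound to GHR, had 0.71 (95% interval −0.12 to 1.54, adjusted p = 0.125). STAT5A had −0.07 (95% interval −0.50 to 0.36, adjusted p = 0.757), and SOCS2, a feedback inhibitor that growth hormone induces, had −0.72 (95% interval −1.43 to −0.01, adjusted p = 0.0863). AKT1, the kinase downstream of PI3K, had −0.10 (95% interval −0.52 to 0.32, adjusted p = 0.634). Not one of these 4 was called. For STAT5A and AKT1 the interval of this fit excludes a 2-fold change, and for JAK2 and SOCS2 it does not.

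**Figure D4:**
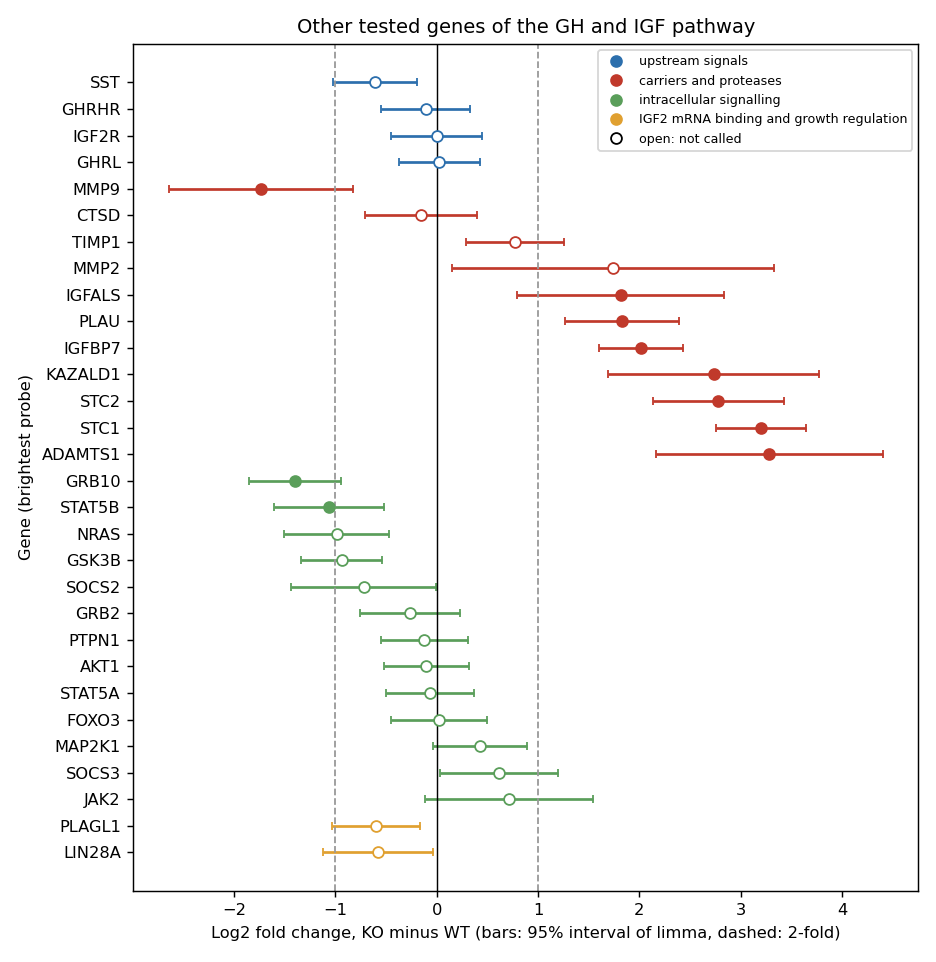
Log2 fold change of KO against WT (horizontal axis) of 30 of the 31 tested genes of the GH and IGF pathway lists, brightest probe of each, with the 95% interval of limma as a bar and the list as the colour. Filled points were called. Of the 8 carriers and proteases well above background on all arrays 4 were called higher and MMP9 lower, and GRB10 and STAT5B are the called genes drawn for intracellular signalling. STC1, STC2 and IGFALS are drawn as fitted, although both WT arrays of the first pair and WT replicate 2 of IGFALS were not well above background.

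The regulators of IGF2 and of fetal growth were represented by 4 named genes, of which 2 were tested. LIN28A, an RNA-binding protein of early development, and PLAGL1, an imprinted zinc finger gene, had log2 fold changes of −0.57 and −0.60 (limma adjusted p = 0.0767 and 0.0401). Both were under 2-fold, and 0 of the list was called (2 had an unadjusted p under 0.05 with limma, and 1 with the methods' t-test). Over all named genes tested, 37.7% were called either way. DLK1, an imprinted gene of fetal tissue and of preadipocytes, was not well above background on any array.

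The calls of the axis rest on the pooled spread of limma. With the methods' t-test on the same values, 12 of the 19 probes had an unadjusted p under 0.05, but 0 were called after Bonferroni correction or after Benjamini-Hochberg adjustment.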

How the data were processed

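Thymus RNA of 2 KO and 2 WT samples was measured on 4 one-colour Agilent porcine arrays. The authors deposited the scanner output of Feature Extraction 11.0.1.1 (per the file headers), in which the processed signal is an intensity on a linear scale, background subtracted, corrected for spatial trends and not normalized between arrays. A table of log2 values was deposited too, which, set against the scanner output held quantile normalized log2 signals with a median of 8.49 in each column. The methods describe labelling with a pair of dyes, whereas labels and files hold 1 channel.

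Control spots and outlier spots were left out (6 probes lost). The log2 processed signal was averaged over the spots of a probe, and each array's 75th percentile was taken off. Probes that stood well above background in every array of KO, of WT or of both were fitted by genotype with lmFit and eBayes of limma 3.58.1 in R 4.3.3, which was tested on simulated data. Adjusted p-values cover all 31959 tested probes. The number of arrays limits the precision. Of 43603 probes, 6686 (15.3%) were named through a RefSeq accession and the RefSeq table of Sscrofa11.1, which was used for names and gene order alone. A pathway or marker gene was represented by its brightest named probe. Groups and replicate numbers came from the labels.

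Every probe of the 10 genes is described. Of the pathway lists, the called genes (except 1 that is counted but not reported here) and the partners of a member are named, the genes closest in pattern are not reported here for IRS1, and of the marker lists mostly summaries. GH1, SSTR2, POU1F1, SST, MMP2, TIMP1, LIN28A, PLAGL1, DLK1, TOP2A and the 4 marker genes given by value were added after their values were seen. The members and lists were chosen with earlier results of these data known. B cell, proliferation, pericyte, skeletal muscle, liver and thyroid marker lists were also computed. Alternatives covered normalization, background correction, the deposited log2 table, the filter on dim probes, slide and replicate blocks, other tests, an intensity trend, the mean over a gene's probes and leaving out each array. Python 3.11.15 with pandas 2.3.3 made the tables, and matplotlib 3.10.9 drew the figures.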

Additional observations from a re-analysis of the deposited data

How the results depend on the processing

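All 19 probes of the axis kept the direction of their difference in every alternative in which they had a value, and the 14 called and 5 uncalled probes stayed on their side under quantile normalization, median scaling, an intensity trend, no filter on dim probes, and slide or replicate blocks. In all, 10882 probes, 14 axis probes and 11 pathway genes were called. Normexp, run on the median spot signal, left 6617 probes. Both IGF1R probes lost their call, and both GHR probes, both IRS1 probes, IGFBP3 and IGFBP4 had folds lower by 1.54 to 2.48 times. The methods' t-test called 0 probes, 0 axis probes and 0 pathway genes after Bonferroni correction (13764 probes had an unadjusted p under 0.05), and 1489, 0 and 2 after Benjamini-Hochberg adjustment. With 2 arrays a genotype this t-test has 2 residual degrees of freedom, and what lowered its counts was not tested. Leaving out 1 array gave 6090 to 12713 probes, 9 to 16 axis probes and 6 to 14 pathway genes. The lowest counts came without KO replicate 2 (6090, 9 and 6), followed by KO replicate 1 (6423, 12 and 7). IGF1, IGF2, IRS1, IGFBP3, IGFBP4 and IGFBP5 were called at their brightest probe in all 4 of these fits. The highest axis count came without WT replicate 1 and includes the dimmer IRS1 probe. That probe was not well above background in the WT array left in, so no call is drawn from it. With the mean over a gene's probes, IGF2, IRS1 and IGFBP6 had 1.91, 1.85 and 1.12. Median scaling moved the median of all tested probes from −0.06 to −0.32 and that of the axis from 1.85 to 1.59, and its calls split into 5811 higher and 6333 lower (47.9% higher), beside 6713 and 4169 (61.7%) with the 75th percentile. Deviations from the genotype mean had r = −0.29 between same-numbered arrays and 0.29 between arrays of the same slide. With 2 arrays a genotype these values are equal and opposite by construction, so they cannot show whether the replicate numbers pair the samples. The replicate block called 10658 probes, 14 of the axis. The crossed pairing, which is that of the slides, called 11136 probes, 14 of the axis. With probes well above background on all 4 arrays alone, 8 pathway genes were called. Dim probes limit IGF1R, IRS1, IGFALS, STC1 and STC2.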

Other observations

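The other marker lists give the tissue in which the axis was measured, where 25.1% of the named genes tested were called higher in KO and 12.6% lower. All 8 proliferation genes tested were lower in KO (median log2 fold change −2.50), and so were all 3 B cell genes (median −3.47), of which not all were well above background in KO. Of 5 pericyte and smooth muscle genes, 3 were called higher in KO (median of the 5, 1.66). The summed scaled signal of the 5 was 29.7 and 29.2 in KO replicates 1 and 2, and 33.0 and 35.3 in WT replicates 1 and 2. Of 11 skeletal muscle genes, 4 were called lower in KO and 0 higher, with a median of −0.71. Of 6 liver genes, 1 was called higher and 2 lower, and of 2 thyroid genes tested none was called.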
